A study of Mus musculus with 2 samples.

Results

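Aminoacyl-tRNA synthetases join each amino acid to its tRNA, and their genes were examined here in single cells of mouse gastruloids. They were chosen by a rule on their symbols, which matched 37 of the 32285 genes listed. By their known site of action 18 of them serve the cytosol, 17 serve mitochondria, and 2 (Gars and Kars) make the enzyme of both compartments from 1 gene.

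A gastruloid is a ball of pluripotent cells that begins to lay down an embryonic axis in a dish. R1 mouse embryonic stem cells were gathered into balls of about 300, kept in serum-free N2B27 medium for 2 days, exposed to 3 µM CHIR, which turns on Wnt signalling by blocking GSK3, for 12 hours and collected at day 2.5. There was 1 library of wild-type cells and 1 of cells labelled as double mutant for the transcription factor genes Sp5 and Sp8, each from pooled aggregates, and both had the same medium and CHIR. The labels do not say how many mutant clones were used. Since each genotype had 1 library, every difference below is a difference between 2 libraries, no test was made, and intervals (95%) cover counting error only.

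Synthetases use ATP to load a tRNA, and an uncharged tRNA is the signal by which a cell senses that an amino acid is scarce. Through the kinase GCN2 this signal raises translation of the transcription factor ATF4, which in turn raises genes of amino acid synthesis, amino acid import and many cytosolic synthetases. Mitochondria make a small set of membrane proteins on their own ribosomes, with their own tRNAs and, for most amino acids, a separate nuclear-encoded synthetase whose symbol ends in 2. Glutamine is an exception: mitochondria charge its tRNA with glutamate and convert it with an amidotransferase.

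Cells were barcodes with at least 2500 UMIs (molecular tags that let copies of 1 molecule be counted once), at least 1000 genes and at most 10% mitochondrial UMIs. There were 8707 in the library labelled wild type against 10587 in that labelled double knockout, with 97157331 and 97644169 UMIs and medians of 10571 and 8637 UMIs per cell. The libraries shared 27 cell barcodes, 0.31% of the smaller one. Levels are given as CPM, UMIs of a gene scaled to a total of 1000000. Both targeted genes went against the label: Sp5 was at 109.1 and 478.7 CPM and Sp8 at 20.8 and 40.2 CPM in the libraries labelled wild type and double knockout. The labels do not give which part of each gene was deleted, and 3′ counts outside that part would check nothing. Whether the labels were exchanged between the libraries was not tested. Directions are therefore given between the labelled libraries and do not stand for loss of these genes. Epiblast markers were present in both (5 of 5 at 1 CPM or more). Primitive streak markers (6 of 6 in both) summed to 290.7 and 472.7 CPM, none of them at 0. Fibroblast markers summed to 6.71 and 6.35 CPM, with Col3a1 and Lum at 0 in both.

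The start sites of the genes are shown first, because 13 of the 20 genes with a cytosolic product are known as ATF4 targets (Aars, Cars, Eprs, Gars, Iars, Lars, Mars, Nars, Sars, Tars, Vars, Wars and Yars) and are also described as a list below. The windows come from RefSeq on GRCm38.p6, 250 bases before and 50 after a gene's start, and 27 of the 37 genes had one. They were searched on both strands for TGATGNAA, the core of the C/EBP-ATF response element, written TTNCATCA when it lies on the other strand. It was found in 5 of the 8 listed genes that had a window, in 0 of 5 other genes with a cytosolic product and in 0 of 14 mitochondrial ones. Of all 32815 windows of that length, 3.97% held it. A match describes letters and no binding was measured. The 5 windows with a match are printed around the start base, 5′ to 3′ on the strand of the gene, with the matches in capitals.
Aars (chr8:111033692-111033871, plus strand): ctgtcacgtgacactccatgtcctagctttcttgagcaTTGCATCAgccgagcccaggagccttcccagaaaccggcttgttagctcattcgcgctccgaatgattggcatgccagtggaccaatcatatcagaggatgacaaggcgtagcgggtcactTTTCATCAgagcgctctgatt
Gars (chr6:55037911-55038030, plus strand): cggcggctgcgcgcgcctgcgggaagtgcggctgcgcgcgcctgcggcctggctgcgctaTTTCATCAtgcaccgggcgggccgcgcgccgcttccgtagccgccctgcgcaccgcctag
Tars (chr15:11399629-11399748, minus strand): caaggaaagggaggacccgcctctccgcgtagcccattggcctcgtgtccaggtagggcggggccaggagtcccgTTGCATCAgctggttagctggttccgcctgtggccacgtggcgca
Iars (chr13:49682040-49682159, plus strand): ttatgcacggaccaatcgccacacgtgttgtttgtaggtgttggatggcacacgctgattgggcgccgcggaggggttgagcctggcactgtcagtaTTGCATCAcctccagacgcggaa
Yars (chr4:129189813-129189932, plus strand): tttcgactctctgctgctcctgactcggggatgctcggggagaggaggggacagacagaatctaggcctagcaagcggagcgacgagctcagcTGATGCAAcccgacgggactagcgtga

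In the windows of Iars and Yars the match began 7 and 3 bases after the start base. In those of Tars and Gars it began 15 and 30 bases before it. Aars held 2 matches, beginning 112 bases before and 9 bases after the start base. Sars, which had the highest ratio between the libraries, held no match, nor did the mitochondrial partners Sars2 and Yars2. Those 3 windows are printed for comparison, and these letters not being in them says nothing about other positions.
Sars (chr3:108445230-108445349, minus strand): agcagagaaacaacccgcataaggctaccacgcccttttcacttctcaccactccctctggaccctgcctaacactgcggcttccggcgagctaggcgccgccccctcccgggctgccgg
Sars2 (chr7:28741878-28741997, plus strand): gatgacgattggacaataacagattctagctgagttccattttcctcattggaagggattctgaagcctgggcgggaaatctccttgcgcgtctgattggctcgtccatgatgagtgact
Yars2 (chr16:16302875-16302994, plus strand): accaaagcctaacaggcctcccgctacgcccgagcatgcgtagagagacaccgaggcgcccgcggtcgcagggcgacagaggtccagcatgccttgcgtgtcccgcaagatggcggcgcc

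All 37 genes had UMIs in both libraries. The 18 cytosolic genes together took 1932 CPM (1923 to 1941) in the library labelled wild type against 2152 CPM (2143 to 2161) in that labelled double knockout. Gars and Kars took 369.8 CPM (366.0 to 373.7) and 451.9 CPM (447.7 to 456.1). The 17 mitochondrial genes took 285.3 CPM (282.0 to 288.7) and 282.2 CPM (278.9 to 285.5), with intervals that overlapped. Counting at the 3′ end gives 1 UMI per captured molecule and is not scaled to transcript length, so these sums compare libraries and are not read as an order of genes. In the median cell the cytosolic genes held 18.8 of every 10000 UMIs in the library labelled wild type (quartiles 15.4 and 22.4) and 20.95 in the library labelled double knockout (17.1 and 25.04). For the mitochondrial genes these medians were 2.66 (1.61 and 3.88) and 2.65 (1.45 and 3.90).

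The libraries were compared by the log2 ratio of CPM, labelled double knockout over labelled wild type, for genes whose mean CPM reached 10. A ratio of 0.25 or more in size is called past the fold. Of all 7607 genes at that level, 3.13% were past the fold on the higher side and 4.67% on the lower side, and their median was -0.02. Among the 18 cytosolic genes 5 were past it on the higher side and 0 on the lower side, with a median of 0.15 and a range from -0.22 to 0.43. Of the 17 mitochondrial genes 11 passed the minimum, 0 of them were past the fold in either direction, and their median was 0.05 with a range from -0.16 to 0.13. The difference of the 2 medians was 0.10, and the counting intervals of the genes gave it a bracket of -0.01 to 0.21. This bracket has the width of single genes' intervals and is not an interval of the difference itself.

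**Figure D1:**
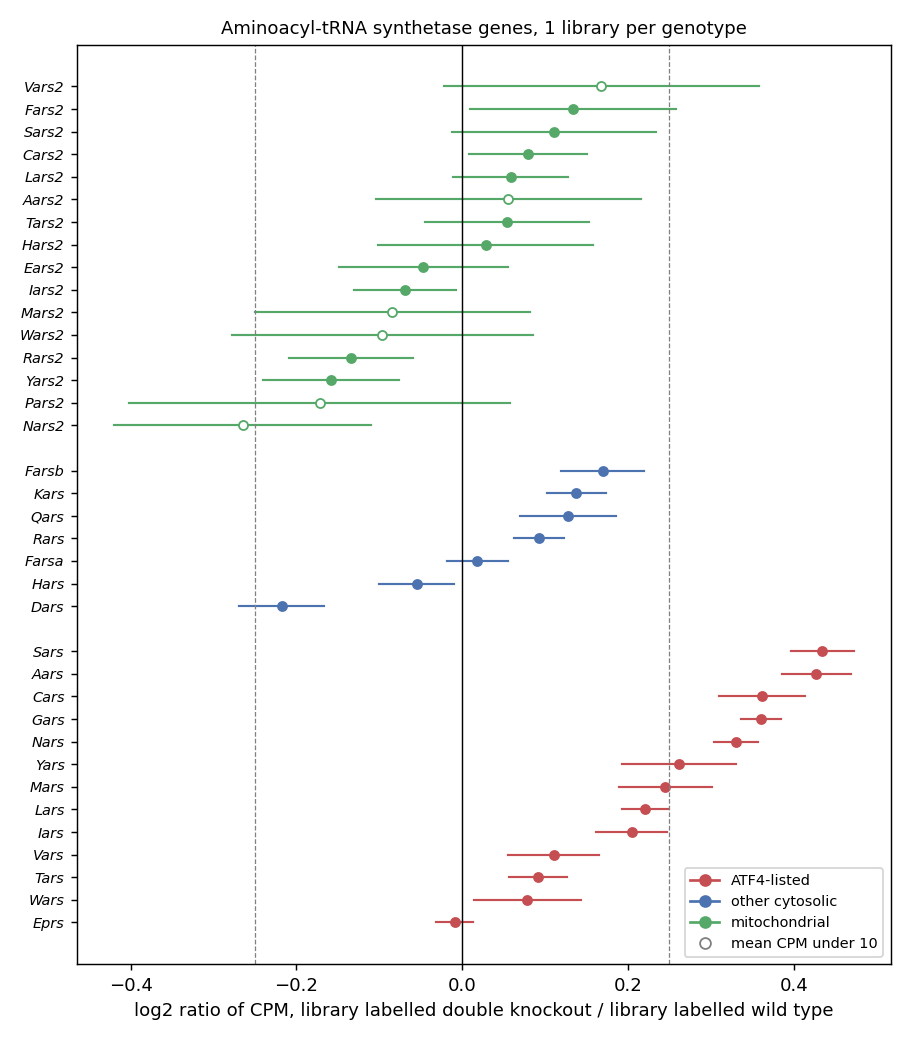
Log2 ratio of CPM between the libraries (x axis) for 36 of the 37 genes (y axis), with 95% counting intervals as lines and dashed lines at the fold of 0.25. Genes are grouped as ATF4-listed (13, with Gars), other genes with a cytosolic product (7, with Kars) and mitochondrial (16 drawn), and open circles mark a mean CPM under 10. The 6 genes past the fold on the higher side, from Yars at 0.26 to Sars at 0.43, are all ATF4-listed.

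The highest ratio was that of Sars, the seryl-tRNA synthetase (chromosome 3, 108424865 to 108445209 in GENCODE M21 on GRCm38). It was at 102.4 CPM (100.4 to 104.4) in the library labelled wild type against 138.4 CPM (136.1 to 140.7) in that labelled double knockout, a log2 ratio of 0.43 (0.40 to 0.47). Aars (chromosome 8, 111033144 to 111057664), which charges alanine, stood at 83.8 CPM (82.0 to 85.6) and 112.6 CPM (110.5 to 114.7), a log2 ratio of 0.43 (0.39 to 0.47). For both genes the counting intervals of the libraries lay well apart. Exosc6 overlaps Aars on the same strand in the annotation, so the value of Aars is less certain.

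Cars, the cysteinyl-tRNA synthetase, was at 53.9 and 69.2 CPM, a log2 ratio of 0.36 (0.31 to 0.41). Gars (chromosome 6, 55038007 to 55079500), whose product charges glycine in both compartments, was at 245.0 CPM (241.9 to 248.2) and 314.6 CPM (311.0 to 318.1), a log2 ratio of 0.36 (0.34 to 0.38). Nars, which charges asparagine, was at 204.7 and 257.4 CPM, a log2 ratio of 0.33 (0.30 to 0.36). Yars, which charges tyrosine, was at 32.8 and 39.3 CPM and lay just past the fold at 0.26 (0.19 to 0.33). With Sars and Aars these are the 6 genes past the fold, and each was higher in the library labelled double knockout. Mars, for methionine, lay just inside the fold at 0.24 (0.19 to 0.30), followed by Lars for leucine at 0.22 (0.19 to 0.25) and Iars for isoleucine at 0.20 (0.16 to 0.25).

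Of the 13 ATF4-listed genes 6 were past the fold and 12 had a ratio above 0, with a median of 0.24. Of all 7607 genes, 238 were past the fold on the higher side and 3267 had a ratio above 0. The exception below 0 was Eprs, the fused glutamyl-prolyl enzyme and the gene with the most UMIs of the 37, at 336.3 CPM (332.7 to 340.0) and 334.2 CPM (330.6 to 337.8) and a log2 ratio of -0.01 (-0.03 to 0.01). With the median of all genes set to 0 its ratio was 0.01, so its side of 0 is not fixed. Vars, Tars and Wars, for valine, threonine and tryptophan, were at 0.11 (0.06 to 0.17), 0.09 (0.06 to 0.13) and 0.08 (0.01 to 0.14).

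The 7 other genes with a cytosolic product had a median of 0.09, and 0 of them were past the fold. Dars, the aspartyl-tRNA synthetase (chromosome 1, 128363707 to 128417368), had the lowest ratio of the 20, at 69.0 CPM (67.4 to 70.7) and 59.4 CPM (57.8 to 60.9) and a log2 ratio of -0.22 (-0.27 to -0.17). Hars, for histidine, was at 81.9 and 78.9 CPM and -0.06 (-0.10 to -0.01) and Farsa, the alpha subunit for phenylalanine, at 0.02 (-0.02 to 0.05). Its partner subunit Farsb was at 0.17 (0.12 to 0.22), so the 2 genes of 1 enzyme had intervals apart. Kars, which charges lysine in both compartments, was at 0.14 (0.10 to 0.17) and Qars, for glutamine, at 0.13 (0.07 to 0.19). Rars, for arginine, was at 180.7 and 192.7 CPM and a ratio of 0.09 (0.06 to 0.12).

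Cells with a low share of UMIs on chromosome 11, which carries Rars, or on chromosome 6, which carries Gars, were unevenly spread between the libraries. Cells at or under 0.8 times the median share made up 17.6% and 5.82% on chromosome 11 and 21.1% and 18.2% on chromosome 6, in the libraries labelled wild type and double knockout. Without those cells the ratio of Rars was 0.06 and that of Gars 0.36, the latter within its counting interval.

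Among mitochondrial enzymes, Fars2 for phenylalanine (10.4 and 11.4 CPM) had the highest ratio at the minimum level, 0.13 (0.01 to 0.26). Sars2 was next at 10.8 and 11.6 CPM and 0.11 (-0.01 to 0.23), and Cars2 was at 31.8 and 33.6 CPM and 0.08 (0.01 to 0.15). Of these 3 intervals that of Sars2 held 0. At the other end Yars2 was at 26.2 CPM (25.2 to 27.2) and 23.5 CPM (22.5 to 24.4), a log2 ratio of -0.16 (-0.24 to -0.08), and Rars2 at 31.4 and 28.6 CPM and -0.13 (-0.21 to -0.06). Both had intervals below 0. Iars2, the mitochondrial gene with the most UMIs, was at 45.2 and 43.1 CPM and -0.07 (-0.13 to -0.01). Ears2, for glutamate, was at 16.3 and 15.8 CPM. Together with Hars2, Tars2 and Lars2 it lay between -0.05 and 0.06 with intervals that held 0.

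Aars2, Mars2, Nars2, Pars2, Vars2 and Wars2 fell under the minimum, with 3.05 to 7.74 CPM. Nars2, at 7.74 CPM (7.20 to 8.31) and 6.44 CPM (5.95 to 6.97), had a log2 ratio of -0.26 (-0.42 to -0.11), opposite in sign to its cytosolic partner Nars. The other 5 ranged from -0.17 to 0.17 with intervals that held 0, so no difference was detectable for them at this depth.

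Genes for the same amino acid were set side by side, which gives 18 pairs (Eprs and Fars2 each enter 2 of them). In 12 pairs both genes were at the minimum level, and the cytosolic ratio was the higher in 9 and the lower in 3, with a median difference of 0.10. The widest gap was that of tyrosine, where Yars was at 0.26 and Yars2 at -0.16. Serine followed with 0.43 for Sars and 0.11 for Sars2, then cysteine with 0.36 and 0.08. Among the 3 pairs that went the other way were histidine, with -0.06 for Hars and 0.03 for Hars2, and Farsa with Fars2, at 0.02 and 0.13. Levels in the libraries labelled wild type and double knockout were 9.91 and 10.1 CPM for Hars2 and 123.1 and 124.7 CPM for Farsa. Hars and Hars2 overlap head to head on opposite strands, and no source used here says whether counting used the strand, which makes both values less certain. In all, 20 of the 37 genes overlap another annotated gene.

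**Figure D2:**
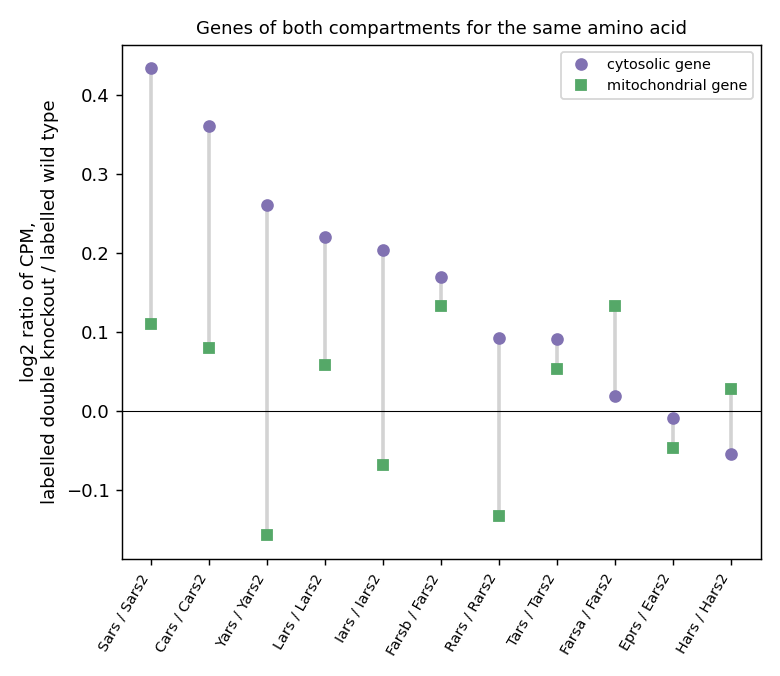
Log2 ratio of CPM between the libraries (y axis) for 11 of the 12 pairs of genes charging the same amino acid (x axis) in which the mean CPM of both genes reached 10. Circles are cytosolic and squares mitochondrial genes, and the circle lies above the square in 9 pairs and below it in 2, while the pair not drawn is one of the 3 with the lower cytosolic ratio.

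Proteins that work beside the synthetases were compared as lists. Aimp1, Aimp2 and Eef1e1, the scaffold of the multi-synthetase complex, were at 0.08 (0.05 to 0.11), 0.13 (0.08 to 0.19) and -0.24 (-0.29 to -0.20), with 0 of 3 past the fold. Of the mitochondrial amidotransferase genes, Gatc and Qrsl1 were at -0.05 (-0.17 to 0.07) and -0.02 (-0.12 to 0.07), and Gatb was under the minimum. Synthetase relatives had 0 of 5 past the fold and lay on both sides of 0, with Pstk, the kinase of selenocysteine synthesis on its tRNA, at -0.17 (-0.23 to -0.12), the deacylase Dtd1 at -0.12 (-0.17 to -0.07) and the editing protein Aarsd1 at 0.10 (0.06 to 0.15). Mitochondrial ribosomal protein genes had a median of 0.06 over 78 genes, with 0 past the fold higher and 1, Mrps28 at -0.57 (-0.64 to -0.50), past it lower. Mitochondrial translation factors had a median of -0.01 over 6 genes, with 0 past the fold, from Gfm1 at -0.23 (-0.30 to -0.17) to Tufm at 0.20 (0.15 to 0.26). Cytosolic elongation and initiation factors had a median of 0.01 over 7 genes. The 1 of them past the fold was Eif4ebp1, a translation repressor that is itself an ATF4 target, at 0.38 (0.36 to 0.40). The medians of these translation lists thus lay from -0.04 to 0.08, against 0.24 for the ATF4-listed synthetases.

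Many genes of amino acid synthesis and import were on the same side as those synthetases, and the regulators of the response were mixed. Atf4 itself was at 158.2 and 195.5 CPM, a log2 ratio of 0.30 (0.27 to 0.34), while Cebpb, a transcription factor of the C/EBP family, was at 31.0 and 25.6 CPM and -0.28 (-0.35 to -0.20). These were the 2 regulators past the fold of 7 at the minimum level, whose median was 0.08. Among amino acid synthesis genes 6 of 11 at the minimum level were past the fold higher and 0 lower, with a median of 0.27. Asparagine synthetase, Asns, was at 98.0 and 151.9 CPM, a ratio of 0.63 (0.59 to 0.67). Mthfd2, of one-carbon metabolism, was at 0.55 (0.52 to 0.57) and Psat1, of serine synthesis, at 0.52 (0.49 to 0.54). Amino acid transporters had 4 of 8 past the fold higher, 0 lower and a median of 0.24, with Slc1a4 at 0.64 (0.55 to 0.72). Stress effectors Chac1 and Trib3 were at 0.77 (0.67 to 0.86) and 0.63 (0.51 to 0.76), while Sesn2 was at 0.00 (-0.05 to 0.06).

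Chac1 and Trib3, which are ATF4-dependent, differed between the libraries, so cells were also split by their stress effector counts. Each cell was thinned to 2500 UMIs and the UMIs of 6 stress effectors (Ddit3, Trib3, Chac1, Sesn2, Nupr1 and Atf3) were counted in it. In the library labelled wild type 7134 cells had 0 such UMIs, 1351 had 1 and 222 (2.55%) had 2 or more. In the library labelled double knockout these were 8289, 1928 and 370 (3.49%). This is a range of a score and not a cell type, and 198 and 319 of the cells in the upper range had exactly 2. In the cells with 0 effector UMIs alone, the cytosolic median ratio between the libraries was 0.15 with 4 of 18 genes past the fold on the higher side and 0 on the lower, against 3.33% and 4.83% of all genes, and the mitochondrial median was 0.04. Then each of the 3 ranges was given the same weight in both libraries, namely its share of UMIs averaged over the libraries. The range at 0 held 79453275 of 97157331 and 76104936 of 97644169 UMIs, so most of the weight fell on it. With these weights the cytosolic median was 0.15. Past the fold were 5 genes on the higher side and 0 on the lower, against 3.13% and 4.63% of all genes. Sesn2, at 0.00 between the libraries, gave 49.6 of 85.4 CPM of the effectors in the library labelled wild type against 49.8 of 104.7 CPM in that labelled double knockout, and most cells were at 0, so these ranges separate cells coarsely.

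Within each library the cytosolic genes took a larger share of UMIs in the upper range. Their sum went from 1916 CPM (1906 to 1926) at 0 effector UMIs to 1981 CPM (1958 to 2003) at 1 and 2141 CPM (2084 to 2199) at 2 or more in the library labelled wild type. The same 3 values were 2138 CPM (2128 to 2149), 2180 CPM (2158 to 2201) and 2307 CPM (2256 to 2358) under the double-knockout label. The mitochondrial sum was 285.1 CPM (281.4 to 288.9), 282.7 CPM (274.3 to 291.3) and 308.0 CPM (286.6 to 330.6) in the former and 283.3 CPM (279.6 to 287.1), 275.1 CPM (267.5 to 282.9) and 293.8 CPM (276.0 to 312.5) in the latter. The highest and lowest of these 3 ranges had overlapping intervals for the mitochondrial sum in both libraries. Median depth was near equal across the ranges, at 10545 and 10474 UMIs for 0 and for 2 or more in the library labelled wild type against 8573 and 8872 in that labelled double knockout.

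**Figure D3:**
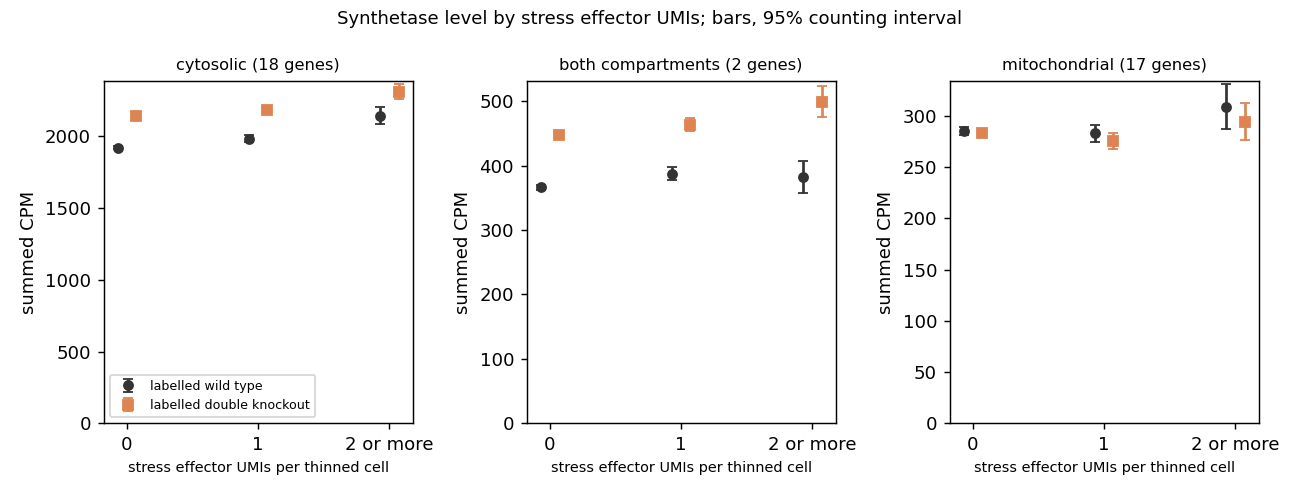
Summed CPM (y axis, from 0) of the 18 cytosolic genes, of Gars and Kars, and of the 17 mitochondrial genes, in cells with 0, 1 and 2 or more stress effector UMIs after thinning (x axis). Circles are the library labelled wild type, squares the library labelled double knockout, and bars 95% counting intervals. The squares lie above the circles in every range for the first 2 groups, and the intervals of the libraries overlap in every range for the mitochondrial genes.

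As a log2 ratio of cells with 2 or more effector UMIs over cells with 0, the cytosolic median was 0.16 under the wild-type label and 0.12 under the double-knockout label, where all genes had medians of 0.02 and 0.01. The bracket of each median (-0.04 to 0.35 and -0.06 to 0.29) held 0, but it has the width of a single gene's interval and is not one of the median. The intervals of the cytosolic sums at 0 and at 2 or more, given above, lay apart in both libraries. Markers of extraembryonic endoderm differed between these ranges too. In the same order of libraries, Sparc was at 0.47 and 1.11, Col4a1 at 0.26 and 1.14 and Dab2 at 0.87 and 1.41. Lama1 was at 1.02 and 2.52 and Gata6, with few UMIs, at 2.27 and 3.655. Sox17 was at 1.32 and 0.07 and Gata4 at 0.55 and -0.07. The part of such cells in the synthetase ratios was not tested. Aars went from 82.5 to 86.7 to 105.2 CPM over the 3 ranges in the former library and from 111.4 to 114.3 to 130.5 CPM in the latter, ratios of 0.35 (0.17 to 0.53) and 0.23 (0.09 to 0.36). Tars, whose ratio between the libraries was 0.09, had ratios of 0.35 (0.20 to 0.49) and 0.18 (0.05 to 0.30). Sars had 0.31 (0.13 to 0.47) and 0.21 (0.08 to 0.33), and Nars 0.24 (0.11 to 0.35) and 0.21 (0.12 to 0.30). For these 4 genes, and for Lars at 0.18 (0.05 to 0.30) and 0.13 (0.03 to 0.23), the intervals lay above 0 in both libraries. Gars had 0.05 (-0.07 to 0.17) and 0.25 (0.17 to 0.33), so its interval lay above 0 in the library labelled double knockout and held 0 in the other.

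The ATF4-listed genes had medians of 0.18 and 0.17 in this comparison and the other 7 medians of 0.08 and 0.01. All 7 of the latter had intervals that held 0 in both libraries, and so did 5 of the 13 listed genes (Iars, Mars, Vars, Wars and Yars). Intervals are narrower for genes with more UMIs, and the share of all genes with intervals holding 0 was not counted. These counts therefore do not compare the lists. Under the wild-type label Yars was at -0.23 (-0.60 to 0.11) and Wars at -0.04 (-0.36 to 0.25). Mars overlaps Ddit3 on the opposite strand, and Ddit3 is among the effectors, so the Mars ratios of 0.13 (-0.14 to 0.37) and 0.17 (-0.04 to 0.36) are less certain. Ranges were also built from Asns, Psat1, Slc7a11 and Trib3, of which Trib3 is among the effectors too. With 4 or more UMIs against 0 they gave medians of 0.20 and 0.28 for the ATF4-listed genes and 0.08 and 0.05 for the other 7. The brackets of the cytosolic medians (-0.16 to 0.40 and -0.02 to 0.37), again of single-gene width, held 0 here as well. Under these ranges Sars was at 0.44 (0.20 to 0.66) and 0.39 (0.27 to 0.51) and Gars at 0.44 (0.28 to 0.58) and 0.42 (0.34 to 0.50), with all 4 intervals above 0. Mitochondrial medians were 0.12 and 0.06 with the effector ranges and 0.00 and 0.02 with these. With the effector ranges the cytosolic median thus lay 0.04 and 0.06 above the mitochondrial one. Pair by pair, the cytosolic gene had the higher ratio in 4 of 10 pairs under the wild-type label and in 8 of 12 under the other.

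Depth moved with synthetase level within each library. From the lowest to the highest quartile of cells by UMIs, the cytosolic sum went from 1813 to 1991 CPM in the library labelled wild type, against 1985 to 2226 CPM in that labelled double knockout. The mitochondrial sum went from 283.6 to 287.7 CPM and from 287.3 to 279.2 CPM. Lars2 alone fell from 40.9 to 31.2 CPM and from 42.5 to 32.1 CPM. Without Lars2 the mitochondrial sum went from 242.7 to 256.6 CPM and from 244.8 to 247.1 CPM. No intervals were computed for these sums, and the second change is too small to be read as a rise. The library labelled double knockout, which had the higher cytosolic sum, had the lower median depth. Among cells with 8000 to 12000 UMIs in both libraries (4146 and 4733 cells) the cytosolic median ratio was 0.17 and 7 of 18 genes were past the fold on the higher side and 0 on the lower, against 5.44% and 7.47% of all genes, with a mitochondrial median of 0.03. Streak state was compared through T, a primitive streak gene that had a UMI in 704 and 1131 thinned cells. T was at 38.8 and 50.7 CPM in all cells, so a thinned cell without a T UMI may still express it. This split therefore separates streak state coarsely and does not hold it fixed. In cells without a T UMI the cytosolic median ratio was 0.16 and in cells with one 0.12. In the latter 5 of 18 genes were past the fold on the higher side and 1 (Dars, at -0.30) on the lower, against 7.47% and 9.71% of all genes. Within each library, T-positive over T-negative cells gave cytosolic medians of 0.11 and 0.07, with single genes from -0.06 to 0.20 and from -0.05 to 0.15. Of the 6 streak markers 5 were higher in the library labelled double knockout. The largest ratios were those of Eomes, at 91.2 and 185.6 CPM and 1.025 (0.99 to 1.06), and Fgf8, at 0.73 (0.69 to 0.76). Evx1 was lower, at 11.3 and 9.69 CPM and -0.22 (-0.35 to -0.09). The part of streak state in the library ratios was not tested beyond this split.

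Lars2, the mitochondrial leucyl-tRNA synthetase (chromosome 9, 123366927 to 123462666), stood apart from the other genes tested in barcodes too shallow to be cells. It was at 34.1 CPM (33.0 to 35.3) in cells of the library labelled wild type and 35.5 CPM (34.3 to 36.7) in those of the library labelled double knockout, a log2 ratio of 0.06 (-0.01 to 0.13). In barcodes with 1 to 100 UMIs, which are usually taken to hold RNA from outside intact cells, it was at 134.6 CPM (124.8 to 144.8) and 121.9 CPM (110.9 to 133.6). The log2 ratio of those barcodes over cells was 1.98 (1.86 to 2.10) and 1.78 (1.63 to 1.92). It was the 1 member past a log2 ratio of 1 among 30 and 31 tested, where 0.213% and 0.201% of all genes were past it. The next highest members were Rars2 at 0.52 and Tars2 at 0.36, and the member medians were -0.07 and -0.06. Mitochondrial transcripts as a whole made up 3.15% and 3.65% of UMIs in these barcodes and 3.84% and 4.08% in cells.

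**Figure D4:**
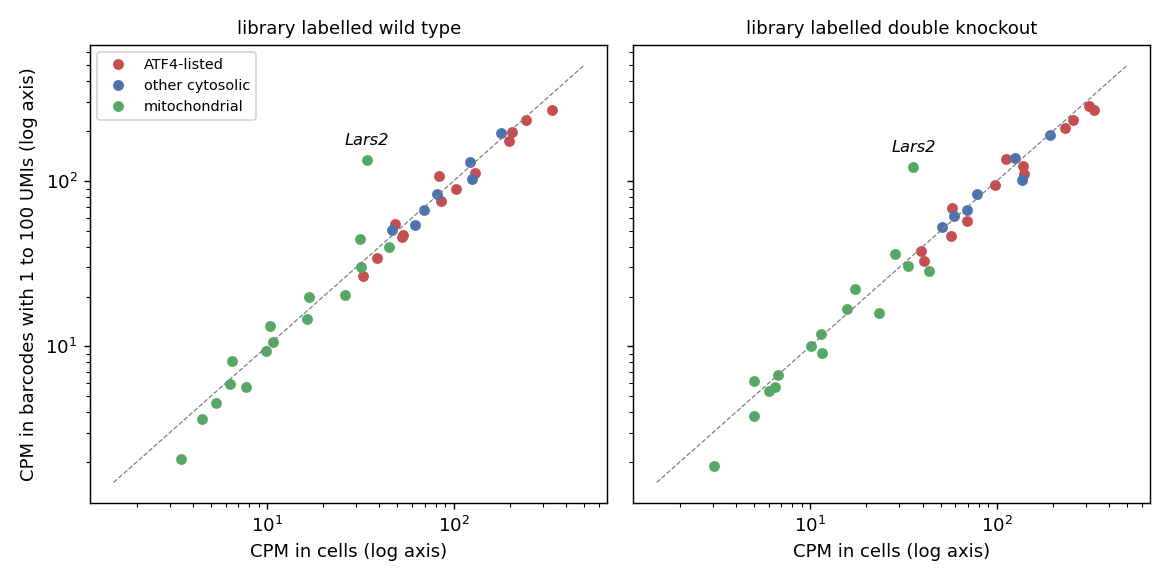
CPM of 36 of the 37 genes in barcodes with 1 to 100 UMIs (y axis, log scale) against CPM in cells (x axis, log scale), for each library, with a dashed line of equality. Under the wild-type label Lars2 lies at 134.6 against 34.1 CPM and under the double-knockout label at 121.9 against 35.5 CPM, and the other genes tested lie between log2 ratios of -0.59 and 0.52.

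Within cells, Lars2 also varied with the share of mitochondrial transcripts. From the lowest to the highest quartile of that share it went from 30.8 to 42.1 CPM in the library labelled wild type, against 31.3 to 43.3 CPM in that labelled double knockout. The other 16 mitochondrial synthetase genes together went from 248.8 to 254.7 CPM and from 242.1 to 251.7 CPM. The cytosolic sum went the other way, from 2003 to 1848 CPM and from 2228 to 2075 CPM. Depth differed between these quartiles, with median UMIs of 10723 in the lowest and 9430 in the highest, and of 8803 and 7842 in the other library. Lars2 also fell with depth itself, from 40.9 to 31.2 CPM and from 42.5 to 32.1 CPM over quartiles by UMIs. Depth and mitochondrial share were not separated. How much of the Lars2 level in cells comes from RNA outside them was not tested.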

How the data were processed

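The files deposited by the authors hold raw UMI counts, with no scaling, for 6794880 listed barcodes per library. Per the labels' protocols, 10x 3′ libraries were processed with Cell Ranger 8.0.1, while the submitters' processing notes name STARsolo, STAR 2.7.9a, Seurat 5.1.0 and mm10. The labels give 9238 and 11190 cells with 5333 and 5398 median genes. The cells kept here had 3275 and 2884 over 8707 and 10587 barcodes. With 97157331 and 97644169 UMIs in cells, precision is set by each gene's own count. The strand setting is not given in the sources used here.

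Barcodes were filtered as in the report (for genes and then mitochondrial share, 1 and 64 barcodes were removed under the wild-type label and 0 and 26 under the other). Doublets were kept, as the member rule has no such step, and an alternative removed the 606 and 897 cells with the highest Scrublet-type scores (scikit-learn 1.9.0). CPM was computed from sums over the cells of a library. Log2 ratios used a pseudocount of 0.5 UMI, exact conditional intervals of 2 Poisson sums (scipy 1.17.1) and exact Poisson intervals for levels. The bracket of a median is the median of the genes' lower and upper bounds. It has the width of a typical single gene's interval and is not a counting interval of the median. For the difference of 2 medians, the half-widths of their brackets were combined as the root of the sum of their squares. TMM factors came from edgeR 4.0.16. The calculation was tested on simulated Poisson counts, the model that its intervals assume. That checks the arithmetic and says nothing about spread between cells or libraries. Of the listed features 32235 of 32285 were in GENCODE M21. Of 2 rows named Ddit3, the row without UMIs was left out.

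The stress comparison was set as 4 or more effector UMIs against 0, but that range held 7 and 6 cells, so 2 or more against 0 is reported instead, a choice made after seeing the data. Cells with 8000 to 12000 UMIs, with and without a T UMI, and the barcodes with 1 to 100 UMIs were also added then. One mitochondrial gene is not reported here on its own and is not drawn, though sums, medians and counts hold it. All other members are accounted for, with values in both libraries for the 6 highest and 6 lowest ratios at the minimum level and for described pairs. Of each comparison list at most the 3 genes with the largest ratio in size at that level are named, besides Gatb, named after its value was seen, and the sets behind the stress ranges. Members and lists were chosen with earlier results of these data known.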

Additional observations from a re-analysis of the deposited data

Results flagged for a closer look

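Lars2 had a signal in data outside the comparisons of cells. In barcodes with 1 to 100 UMIs, which hold 5269228 and 3709403 UMIs in all, it was at 134.6 CPM in the library labelled wild type and 121.9 CPM in the library labelled double knockout, against 34.1 and 35.5 CPM in cells. No control sample was used for these barcodes, and both values rest on 709 and 452 UMIs, far above a count of 0.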

How the results depend on the processing

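No paired analysis was possible because each genotype has 1 library. Medians and differences that left their bracket, and counts that differed by over 1.5 times, are given here. Between the libraries, the cytosolic median stayed from 0.12 to 0.18 under the 15 alternatives and the count past the fold higher from 4 to 7. It was 4 in cells with 0 effector UMIs, against 3.33% of all genes, and 7 in cells with 8000 to 12000 UMIs, against 5.44%. In cells with a T UMI the mitochondrial median was -0.066 and 1 cytosolic gene was past the fold lower (Dars, at -0.30), where 9.71% of all genes were. With a minimum mean CPM of 1 or no minimum, Nars2, at -0.26, was counted and lay past the fold lower. The share of all genes past the fold at those minimums was not computed, so that count is not read further. TMM scaling put Eprs at 0.02. With 4 or more effector UMIs against 0, which rests on 7 and 6 cells, the stress comparison gave a cytosolic median of 0.61 in the library labelled wild type, mitochondrial medians of 1.11 and 1.24, and cytosolic minus mitochondrial differences of -0.50 and -1.14. By Ddit3 alone (1 or more against 0, since 4 or more held no cell) Sars was at -0.12 in the library labelled wild type. Ratios of single genes moved in 35 of 465 cases between the libraries, in 51 of 341 in the stress comparison under the double-knockout label, and in 51 of 330 under the wild-type label, where the 1 further case was the reversal of Sars. The within-library cytosolic minus mitochondrial differences, 0.04 and 0.06 as reported, also took the other sign under Ddit3 alone (-0.16) and a minimum mean CPM of 1 (-0.05) in the library labelled wild type, and without cells low on chromosomes 6 and 11 (-0.00597) in the other. The cause was not tested for any of these.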
